A study of Mus musculus with 166 samples.

Results

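Small RNA from the cerebellum of heterozygous Q175 mice was compared between 10 and 2 months of age, to ask which microRNAs change while these mice grow older. The comparison rests on 8 libraries at 10 months and 8 at 2 months, 16 of the 166 samples in the series, chosen by their sample titles. All 16 belong to 1 library series. Each age held 4 females and 4 males on a C57BL/6 background, and the mice of each age were different animals. Q175 mice carry 1 wild-type Htt allele and 1 allele into which a human HTT exon 1 with a long CAG repeat was knocked in. The line arose when the repeat of the Q140 model expanded. Heterozygous males were bred to C57BL/6J females. No agent was given. The controls were wild-type (WT) mice, which were littermates of the Q20 line, and heterozygous Q20 mice, whose repeat is short, at the same ages (8 libraries per group). Heterozygous Q175, WT and Q20 mice of 6 months (8 of each, 4 females and 4 males) were used for levels at that age only. Since WT mice came from the Q20 line, litter cannot be told apart from the repeat in a comparison of Q175 with WT.

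A microRNA is cut from a hairpin precursor and directs the Argonaute complex to messenger RNAs that pair with its seed, bases 2 to 8 of the mature strand. MicroRNAs with the same seed share many targets and are grouped into families. Many are transcribed together from clusters, of which the imprinted Dlk1-Dio3 domain on mouse chromosome 12, whose microRNAs come from the maternal allele, is among the largest. In brain, Mir132 and Mir212 are known to be induced by CREB and neuronal activity, Mir219a and Mir338 to promote oligodendrocyte maturation, and the miR-29 family to increase as neurons mature.

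Mature sequences of the microRNAs on which the results turn were taken from RefSeq (GRCm38.p6), where 309 of the 414 features tested had an entry by symbol. Capitals mark the seed, and all sequences are written 5′ to 3′. The counts are per hairpin and do not tell its arms apart, so 1 arm is shown for each, and both for Mir154. The first set fell in Q175 between 2 and 10 months. Mir99a, Mir99b and Mir100 share 1 seed, and Mir125a and both Mir125b hairpins share another.
miR-99a-5p (chr16:77598940-77598961, plus strand): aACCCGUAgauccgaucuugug
miR-99b-5p (chr17:17830194-17830215, plus strand): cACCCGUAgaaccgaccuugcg
miR-100-5p (chr9:41531437-41531458, plus strand): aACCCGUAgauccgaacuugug
miR-125a-5p (chr17:17830817-17830840, plus strand): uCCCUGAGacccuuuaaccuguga
miR-125b-5p (Mir125b-2, chr16:77646279-77646300, plus strand): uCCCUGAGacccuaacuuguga
miR-128-3p (Mir128-1, chr1:128202404-128202424, plus strand): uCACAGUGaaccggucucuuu
miR-217-5p (chr11:28763761-28763783, plus strand): uACUGCAUcaggaacugacugga
Over their 22 positions miR-99a-5p and miR-100-5p differ at 1 base, and each differs from miR-99b-5p at 4.

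The second set, the miR-29 family, rose and has 1 seed in common.
miR-29a-3p (chr6:31062673-31062694, minus strand): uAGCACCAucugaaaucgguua
miR-29b-3p (Mir29b-2, chr1:195037091-195037113, plus strand): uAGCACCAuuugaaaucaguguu
miR-29c-3p (chr1:195037600-195037621, plus strand): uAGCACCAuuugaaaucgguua
The third set holds microRNAs whose change with age differed between Q175 and controls. Mir132 and Mir212 share a seed, while the other 5 arms each have their own.
miR-132-3p (chr11:75173723-75173744, plus strand): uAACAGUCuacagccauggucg
miR-212-3p (chr11:75173443-75173464, plus strand): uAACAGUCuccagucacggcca
miR-137-3p (chr3:118433901-118433923, plus strand): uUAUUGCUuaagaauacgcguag
miR-127-3p (chr12:109592888-109592909, plus strand): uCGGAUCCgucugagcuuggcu
miR-154-5p (chr12:109738438-109738459, plus strand): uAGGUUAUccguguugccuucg
miR-154-3p (chr12:109738474-109738495, plus strand): aAUCAUACacgguugaccuauu
miR-410-3p (chr12:109743764-109743784, plus strand): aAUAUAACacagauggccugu

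The Q175 libraries held 3793031 to 6124110 counts, of which the 10 most abundant features took 58.4% to 59.9%. None of them stood apart by its connectivity to the other libraries of its age (Z.k between -1.61 and 1.34), and 3 control libraries with Z.k below -5 were left out (2 of WT and 1 of Q20, all at 2 months), leaving 45. Levels are given as CPM, counts relative to library size after scaling by trimmed mean of M values (TMM) factors, and age changes as log2 of 10 over 2 months with the standard error. A feature is called when its false discovery rate (FDR, edgeR quasi-likelihood test, Benjamini-Hochberg over 414 features) is under 0.05. The 7 neuronal marker microRNAs tested summed to 74660 to 89900 CPM at 2 months and 63280 to 72300 at 10 months. Muscle markers were far lower, at 56.4 to 77.6 and 49.8 to 61.0 CPM, and the liver marker Mir122 was too low to be tested. Vascular markers summed to 13000 to 13970 and 13310 to 18910 CPM. Oligodendrocyte markers summed to 3049 to 3675 and 3557 to 4386 CPM. The choroid plexus markers summed to 16450 to 21230 and 16320 to 22370 CPM, and those of blood to 181 to 235.6 and 203.2 to 462 CPM. Most of the choroid plexus sum was Mir204 (means 18190 and 18280 CPM). Mir448 had means of 20.1 and 31.1 CPM, so the sum says little about it. The part of these marker levels in the results was not tested.

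The ages lay in different sequencing lanes: at 2 months 6 Q175 libraries were in lane L1 and 2 in L2, and at 10 months 5 were in L5 and 3 in L6. Age therefore cannot be told apart from lane and run in any single line. The controls were spread over lanes L1 and L2 at 2 months and L4, L5 and L6 at 10 months, with 5 of the 16 older controls in L4, which held no Q175 library. Lane 2 held 2 of the 8 younger Q175 mice and 10 of the 16 younger controls, so lane was not balanced between lines either. In bulk tissue, fewer cells of a type and less RNA per cell cannot be told apart.

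Between 2 and 10 months 200 of the 414 features were called in Q175, a background of 48.3%. Of these, 101 rose (24.4% of all tested) and 99 fell (23.9%), with a median log2 change of 0.36 among rises and -0.55 among falls. The median over all features was 0.02. Large changes were mostly falls: 17 falls and 4 rises reached a log2 size of 1, and these 4 rises were all of miR-200 hairpins near the limit of detection. Among the called features, 31 falls and 22 rises shared a stretch of 18 nt or more with another feature. No entry in the annotation was found for 14 falls and 0 rises. Some features, such as Gm23935, Gm24245 and Gm24270, had the same levels, so these counts are not of independent hairpins. The groups did not overlap for 85 features (20.5%), of which 42 were higher in all 10-month libraries (10.1%) and 43 lower (10.4%). The first principal component of the 16 libraries (52.3% of the variance) separated the ages.

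Of the 5 most abundant features, Mir127 and Mir125a are described further on. Mir26a-2, which takes part in neuronal differentiation, ranged from 135500 to 150200 CPM at 2 months (median 140000) and from 135900 to 158900 at 10 months (median 151100), and was not called (log2 0.07 ± 0.04, FDR = 0.158). Mir181a-2 was at 131100 to 156700 (median 142400) and 138000 to 151200 CPM (median 142000), also not called (0.02 ± 0.04, FDR = 0.78). Both groups overlapped for each. Mir26a-2 was called higher in 7 of 32 alternative runs (log2 up to 0.12, lowest FDR = 0.00127), and Mir181a-2 in 1 of 32 (FDR = 0.0267). Mir30a rose from 45990 to 49660 CPM (median 48480) to between 50990 and 58610 (median 55020), without overlap (0.20 ± 0.03, FDR = 1.83e-06). Mir26a-2, Mir181a-2 and Mir30a each have a stretch of 18 nt or more in common with another hairpin, and how reads were divided between such copies is unknown.

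The miR-99, miR-100 and miR-125 hairpins fell, all 6 of them, beside 23.9% of all features. These microRNAs are known as regulators of differentiation and of mTOR signaling (miR-99 and miR-100) and as homologs of the worm microRNA lin-4 (miR-125). Their summed level lay between 103100 and 126400 CPM at 2 months and between 36730 and 54190 at 10 months. They lie on chromosomes 9, 16 and 17, close to let-7 hairpins. The median log2 change of the 6 was -1.08, against 0.02 over all features.

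Mir100 (ENSMUST00000175270, chromosome 9, 41531425 to 41531504, in an intron of 3110039I08Rik, GRCm38) ranged from 6089 to 7824 CPM at 2 months (median 6794) and from 1379 to 2203 at 10 months (median 1788). Every 10-month library lay below every 2-month library, a log2 change of -1.96 ± 0.09 (FDR = 1.18e-20). Its neighbour in the same host, Mirlet7a-2, fell by much less, from 1114 to 1320 CPM to between 797 and 1086 (-0.31 ± 0.07, FDR = 0.000153).

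Mir99b (ENSMUST00000083462, chromosome 17, 17830188 to 17830257, in an intron of Spaca6) was at 24800 to 30350 CPM at 2 months (median 27360) and at 5896 to 10400 at 10 months (median 8084). Again all 8 older mice lay below all 8 younger ones (-1.73 ± 0.11, FDR = 8.21e-17). Mir125a, in the same host and close by (17830812 to 17830879), went from 57700 to 73530 CPM (median 67240) to between 21090 and 31910 (median 27810), with no overlap (-1.31 ± 0.08, FDR = 8.41e-17). At 2 months Mir125a held 6.72% of the normalised counts of Q175, and at 10 months 2.71%.

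On chromosome 16, Mir99a fell from between 1929 and 2257 to between 1074 and 1297 CPM (-0.85 ± 0.05, FDR = 2.64e-17) and Mir125b-2 from between 10870 and 12180 to between 5967 and 7846 (-0.68 ± 0.05, FDR = 2.79e-16), both in introns of Mir99ahg. Mirlet7c-1 of the same host moved the other way, from a median of 4412 to 4962 CPM with overlapping groups (0.17 ± 0.06, FDR = 0.017). Hairpins of 1 host transcript thus changed by unequal amounts, as they did in the cluster on chromosome 9. Both let-7 hairpins have stretches in common with other let-7 copies.

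**Figure D1:**
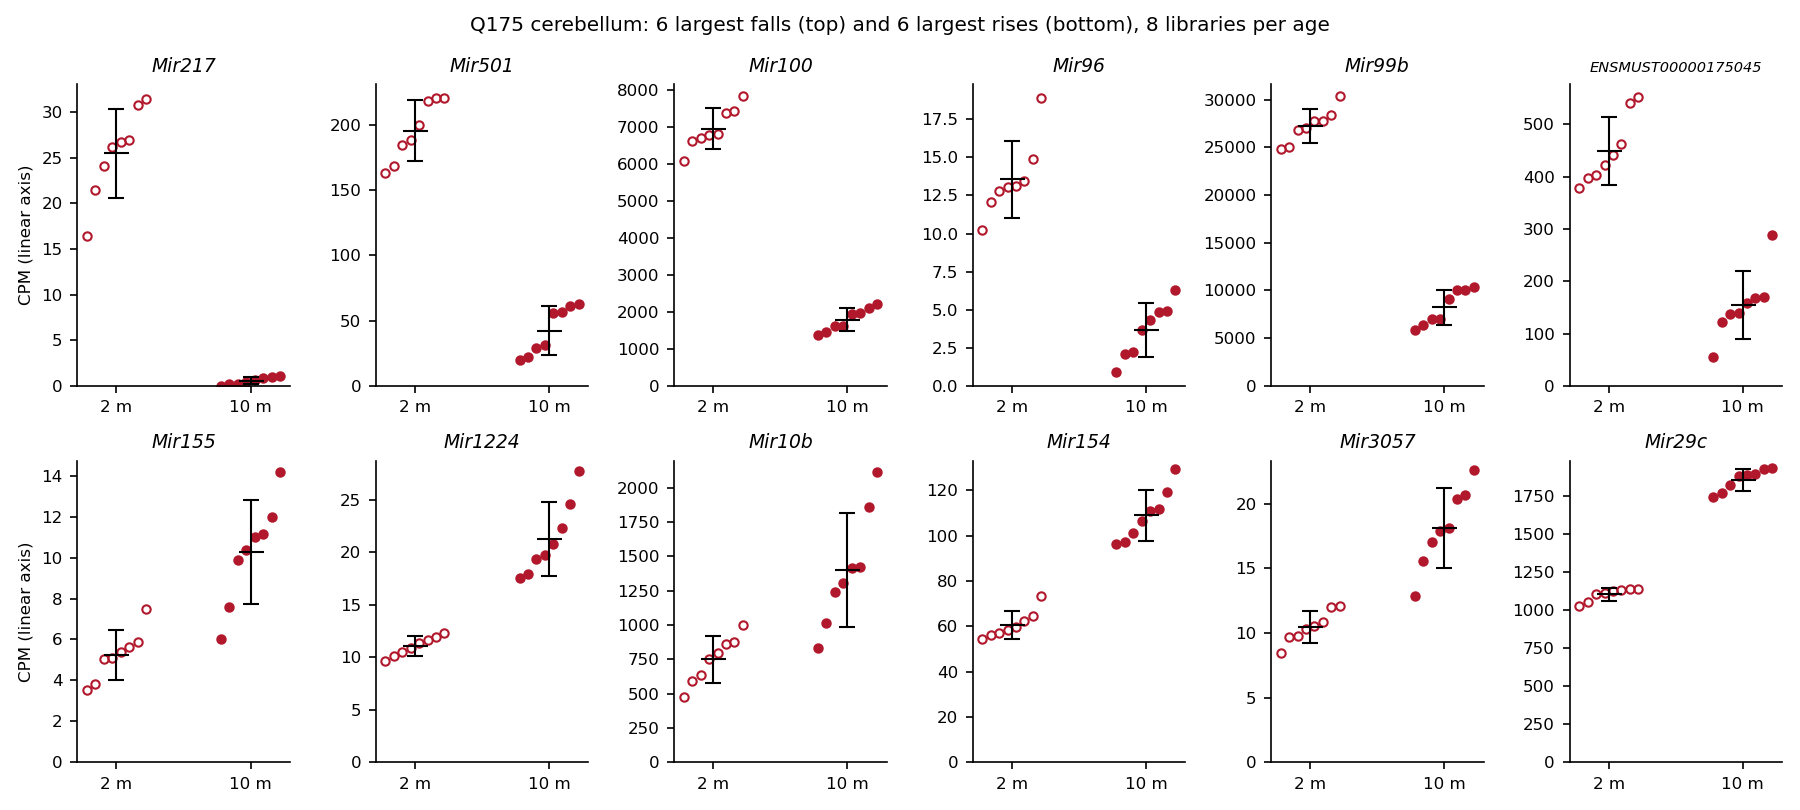
CPM in each Q175 library at 2 months (open circles) and 10 months (filled circles), on a linear axis from 0, for the 6 largest falls (top) and the 6 largest rises (bottom) with a mean of at least 10 CPM at 1 of the ages; bars give the mean and SD of 8 libraries. The 10-month libraries lie below all 2-month libraries in the 6 upper panels, while in the lower panels the groups of Mir155 and Mir10b overlap.

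Mir217 gave the largest called fall. The fitted change of Mir19b-1 was larger (-5.59, FDR = 0.0587) but was not called, at a mean of 1.35 CPM at 2 months and 0 at 10 months. Mir217 ranged from 16.4 to 31.4 CPM at 2 months (median 26.4) and from 0 to 1.12 at 10 months (median 0.581). The groups were far apart, and the fitted log2 change of -5.45 ± 0.42 (FDR = 1.49e-14) rests on a handful of counts per library at 10 months. Mir217 lies on chromosome 11 (28763728 to 28763835, intron of Gm12082) and is known for its high level in exocrine pancreas. Mir216a and Mir216b of the same cluster, named here after their values were seen, fell as well, from means of 3.74 to 0.507 CPM (-2.82 ± 0.41, FDR = 2.28e-07) and of 2.29 to 0.462 CPM (-2.20 ± 0.50, FDR = 0.000265).

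Mir501 (ENSMUST00000102296, chromosome X, 7241243 to 7241351) was at 163.1 to 220.8 CPM at 2 months (median 194.1) and at 19.5 to 63.0 at 10 months (median 43.6). The groups did not overlap (-2.20 ± 0.22, FDR = 1.64e-11). It belongs to a cluster in an intron of Clcn5 whose other tested members moved less and not all in the same direction. Mir188 was called as a rise (0.23, FDR = 0.0297) and Mir500 was not called (-0.03, FDR = 0.855). Mir532 went from a median of 495.7 to 396.4 CPM with overlap (-0.24 ± 0.06, FDR = 0.00101), and Mir362 from 17.9 to 26.1 CPM to between 13.7 and 16.8 (-0.57 ± 0.08, FDR = 3.07e-08).

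Mir96, a member of the sensory Mir183 cluster needed in hair cells of the ear, ranged from 10.2 to 18.9 CPM (median 13.1) at 2 months and from 0.938 to 6.28 (median 4.02) at 10 months. All older libraries lay below the younger ones (-1.92 ± 0.25, FDR = 2.81e-08). The other members of that cluster did not pass the test: Mir182 and Mir183 ranged over a wide span at 10 months, with Mir182 between 569.6 and 1955 CPM.

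Of the features without a gene name in the annotation used, ENSMUST00000175045 fell from between 378.5 and 551.2 CPM (median 431.6) to between 56.0 and 288 (median 148.9), with no overlap (-1.54 ± 0.29, FDR = 1.69e-05). ENSMUST00000175620 fell by 1.25 ± 0.26 on the log2 scale (FDR = 9.09e-05) with overlapping groups. Mir3963 fell as well (-1.31 ± 0.23, FDR = 6.43e-06), from between 237.6 and 650.1 to between 94.7 and 248.8 CPM, with overlap. Mir296, from the imprinted Gnas locus, went from between 7.71 and 17.1 (median 13.8) to between 3.81 and 7.33 CPM (median 5.97), a change of -1.15 ± 0.15 (FDR = 1.16e-08) without overlap.

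Of 29 neuronal microRNAs tested, 12 fell, 6 rose and 11 were not called, with a median log2 change of -0.09, beside 23.9% lower and 24.4% higher over all features. Mir128-1, a brain-enriched microRNA that restrains neuronal excitability, fell from between 13650 and 24040 CPM (median 21510) to between 9105 and 10180 (median 9677). The groups did not overlap (-1.09 ± 0.08, FDR = 4.66e-15). Mir128-2, with the same mature strand, fell by 0.46 ± 0.04 on the log2 scale (FDR = 3.38e-12), and reads of the 2 hairpins may have been divided between them. Mir346 (-0.87 ± 0.08, FDR = 2.17e-12) and Mir129-2 (-0.42 ± 0.06, FDR = 3.62e-08) fell too, and Mir488 rose (0.52 ± 0.08, FDR = 3.01e-07).

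Rises were smaller in size. All 4 miR-29 hairpins rose, beside 24.4% of all features, with a median log2 change of 0.61. Mir29c (ENSMUST00000083614, chromosome 1, 195037547 to 195037634, in an exon of A330023F24Rik) went from between 1028 and 1139 CPM at 2 months (median 1118) to between 1741 and 1933 at 10 months (median 1883). Every older library lay above every younger one (0.75 ± 0.05, FDR = 8.41e-17). Mir29b-2 of the same transcript rose by 0.74 ± 0.06 (FDR = 1.91e-13) and Mir29a on chromosome 6 from between 8306 and 10040 to between 11310 and 13330 CPM (0.47 ± 0.04, FDR = 4.39e-13). Mir29b-1 was called at 0.47 ± 0.20 (FDR = 0.045), with overlapping groups, and the call was lost without any one of several libraries (without Q175 10-month library F3 0.37, FDR = 0.133). It shares sequence with Mir29b-2 and Mir29c.

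Mir155, induced in activated immune cells, rose from between 3.54 and 7.48 CPM (median 5.24) to between 6.04 and 14.2 (median 10.7), the largest rise among features above 10 CPM. The groups overlapped (0.97 ± 0.19, FDR = 2.49e-05). Mir142b rose from between 130.3 and 158.1 to between 194.8 and 269 CPM without overlap (0.65 ± 0.08, FDR = 5.18e-09). It is annotated on the minus strand, opposite to the blood-cell microRNA Mir142, and the strand setting of the counting is not given in the sources used here. Mir146, a negative regulator of Toll-like receptor signaling, rose from between 56.4 and 87.1 to between 91.9 and 148.6 CPM (0.63 ± 0.10, FDR = 1.44e-06). Mir150, of mature lymphocytes, fell from between 1007 and 1214 to between 690.3 and 844.8 CPM (-0.45 ± 0.05, FDR = 2.93e-10). Of the 8 microglia and immune microRNAs, 3 rose, 1 fell and 4 were not called, a share near the 48.3% called over all features.

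Mir1224, a mirtron spliced from an intron of Vwa5b2, went from between 9.61 and 12.4 CPM (median 11.1) to between 17.6 and 27.8 (median 20.3). The groups did not overlap (0.94 ± 0.13, FDR = 8.71e-08). Mir3057, annotated in an exon of Apba3, went from between 8.45 and 12.1 CPM (median 10.5) to between 12.8 and 22.6 (median 18.02), also without overlap (0.80 ± 0.13, FDR = 3.69e-06). Mir210, a hypoxia-responsive microRNA, rose from between 21.9 and 30.7 to between 38.5 and 47.8 CPM (0.68 ± 0.08, FDR = 1.88e-09), and Mir203 by 0.65 ± 0.11 (FDR = 4.23e-06) with overlap.

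Mir10b, from the HoxD cluster and high in hindbrain and spinal cord, was at 474 to 1001 CPM at 2 months (median 775.6) and 835 to 2111 at 10 months (median 1360). The groups overlapped (0.89 ± 0.27, FDR = 0.00641). In females alone the rise was 0.66 (FDR = 0.157) and was not called.

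The counts of other lists stand beside 48.3% called over all features, 24.4% higher and 23.9% lower. Of 10 let-7 hairpins 5 fell and 3 rose, among them Mirlet7g (-0.37 ± 0.05, FDR = 6.11e-08) and Mirlet7c-2 (0.33 ± 0.04, FDR = 6.64e-10). In the Mir23, Mir24 and Mir27 clusters 4 of 5 rose, among them Mir24-2 (0.18 ± 0.04, FDR = 0.000432). None of these 4 was called in males only (Mir24-2 0.10, FDR = 0.113). Mir27a was also not called in females only (FDR = 0.122) or with DESeq2 (FDR = 0.051). Mir126a of endothelium rose (0.32 ± 0.04, FDR = 1.75e-08) and Mir145a of smooth muscle fell (-0.23 ± 0.07, FDR = 0.00641). In males only the fall of Mir145a was not called (-0.16, FDR = 0.188). Mir143, the remaining vascular microRNA tested, was positive and not called (0.20, FDR = 0.0532), at means of 7999 and 9214 CPM. The erythroid Mir451a rose (0.48 ± 0.11, FDR = 0.000406) and Mir144, transcribed with it, fell (-0.33 ± 0.11, FDR = 0.00986). Mir451a was not called in males only (0.24, FDR = 0.131). Mir144 was not called in females only (-0.18, FDR = 0.41) or with lane as a term (-0.24, FDR = 0.0755). Mir486, the remaining erythroid microRNA tested, was not called (0.14, FDR = 0.0649). In the Mir17-92 cluster and its paralogs 3 of 13 rose and 1 fell, and of 6 miR-30 hairpins 2 rose. Of these, Mir30c-1 (0.36) was not called when hairpins with common sequence were summed (0.02, FDR = 0.747) or with RPKM (0.08, FDR = 0.117). The Mir344 family had 2 falls among 4, the muscle microRNAs 2 falls among 5, the miR-34 family 1 rise among 3 and the liver and gut list 1 rise among 4. None of the 8 choroid plexus and ciliated epithelium microRNAs was called.

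All 4 miR-200 family members tested, known from epithelia and olfactory tissue, were called higher at 10 months, beside 24.4% of all features. Their levels were very low. Their summed level was 1.34 to 5.66 CPM at 2 months and 3.49 to 60.9 at 10 months (median 5.99). The high end was library M4, with Mir429 at 19.2 CPM, followed by F2 at 10.3, while the other 6 libraries were at 0.46 to 3.05. Without M4 the log2 changes were 2.32 for Mir200a (3.32 with it), 1.98 for Mir429 (2.83), 1.35 for Mir200b (2.13) and 1.18 for Mir141 (1.91), with FDR between 0.0058 and 0.0497.

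Controls of the same ages showed most of these changes too. In controls, 227 features were called between 2 and 10 months (54.8%), 122 higher (29.5%) and 105 lower (25.4%). Of the 200 called in Q175, 155 were called in controls, 153 of them in the same direction. Across the 414 features the age changes of Q175 and controls had r = 0.849. This is a description, since the features are not independent and both changes share the lanes of their ages. In controls Mir100 fell by 1.64 ± 0.07 on the log2 scale, Mir99b by 1.42 ± 0.08, Mir125a by 1.10 ± 0.06, Mir501 by 2.16 ± 0.16 and Mir217 by 4.12 ± 0.26, while Mir29c rose by 0.80 ± 0.04 and Mir10b by 1.41 ± 0.21. None of the differences from Q175 in these 7 was called, with Mir100 nearest (-0.32 ± 0.11, FDR = 0.0534).

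Q20 libraries at 6 months, of the same library series, give a time point between the others. Mir100 was at 6565 ± 1042 CPM (SD, n = 7) at 2 months, 2272 ± 219 (n = 8) at 6 months and 2112 ± 282.1 (n = 8) at 10 months. Mir125a followed the same course, at 72750 ± 9054, 36100 ± 2307 and 32790 ± 4287 CPM, as did Mir217 at 27.8 ± 3.68, 1.45 ± 0.82 and 1.65 ± 1.73 CPM. Mir29c was at 1117 ± 66, 1890 ± 130.6 and 1958 ± 76.5 CPM. These 4 had a 6-month level within 1 SD of the 10-month level, as did 8 of the 10 largest falls and 6 of the 10 largest rises named for Q175. Others did not: Mir501 was at 60.7 CPM at 6 months and 42.1 ± 14.4 at 10 months. Mir142b was at 145.4, 157.5 and 209.5 CPM, and Mir146 at 72.8, 70.5 and 104 CPM, nearer at 6 months to the 2-month level. The 6-month Q175 libraries are of another library series and were not joined to the other ages.

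**Figure D2:**
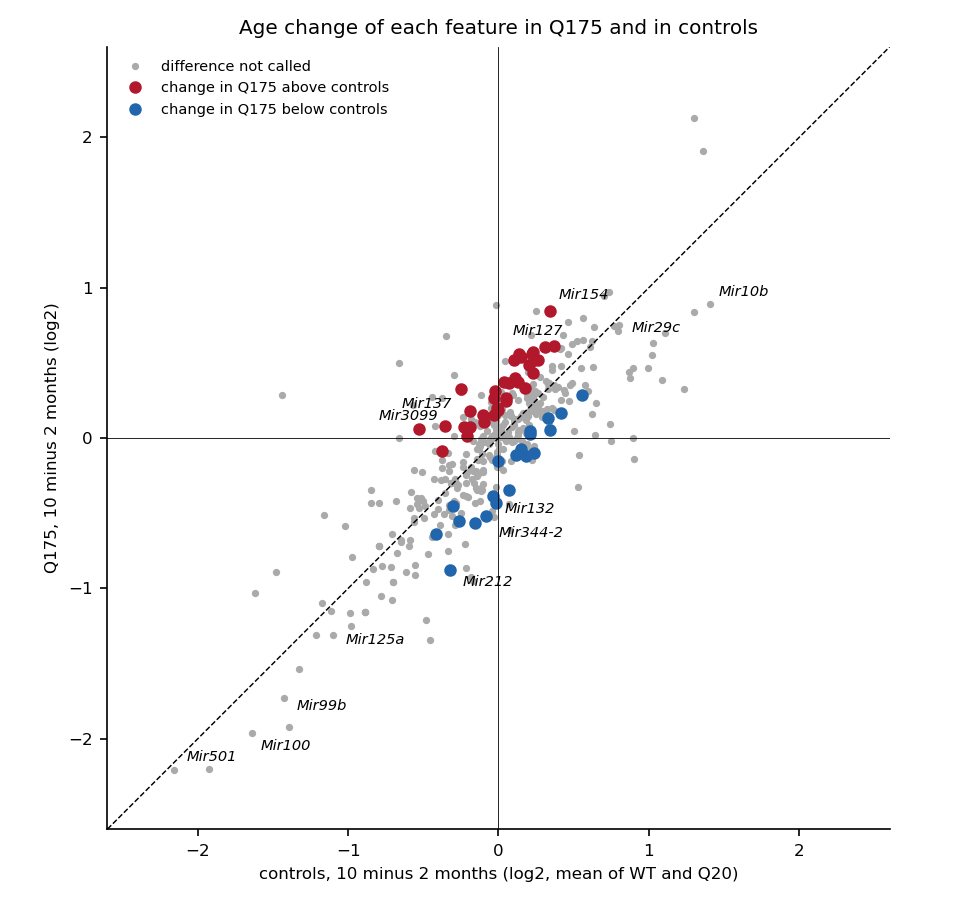
Log2 change from 2 to 10 months in controls (x axis, mean of WT and Q20) and in Q175 (y axis) for 408 of the 414 features, with 6 that lay beyond 2.6 on an axis left out; the dashed line marks equal change. Most features lie along the line, and the 34 red and 20 blue points are those whose age change in Q175 was called above or below that of controls.

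The age change differed between Q175 and controls in 54 features (13.0% of 414; 98 at an unadjusted p under 0.05), 34 with a higher change in Q175 (8.21%) and 20 with a lower one (4.83%). With features filtered at a mean of 10 CPM the split was 33 and 34. Of the 54, 28 moved further in the same direction in Q175, 7 moved less, and in 19 the fitted changes had opposite signs. With WT alone as the control 33 were called and 22 of the 54 were lost, and with Q20 alone 51 were called and 6 lost. With males only 52 of the 54 were lost and with females only 38. At 2 months 0 features differed between Q175 and WT by edgeR (20 at an unadjusted p under 0.05), and at 10 months 99 did (23.9%), 59 higher (14.3%) and 40 lower (9.66%). In 20 of the 414 features (4.83%) all 10-month Q175 libraries lay above or below all control libraries of that age. Mir212, Mir344-2, Mir137 and Mir154, described below, were named for the size of their difference from controls.

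Mir212 and Mir132, which form 1 transcript on chromosome 11, both fell with age in Q175. Mir212 (ENSMUST00000083656, 75173388 to 75173478) was at 235.8 to 295.9 CPM at 2 months (median 275.6) and at 120.2 to 170.2 at 10 months (median 146.4). The groups did not overlap, and all 10-month Q175 libraries lay below the lowest control library of that age (179.8 CPM in WT, 192.1 in Q20). The fall was -0.88 ± 0.06 in Q175 (FDR = 1.59e-15) and -0.32 ± 0.05 in controls, a difference of -0.55 ± 0.08 (FDR = 5.15e-06).

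Mir132 (75173682 to 75173747) went from between 980.4 and 1251 CPM (median 1100) to between 778.1 and 945.7 (median 834.8) in Q175, without overlap. In WT it was at 973.6 to 1193 CPM at 2 months and at 938.5 to 1371 at 10 months. The change was -0.38 ± 0.06 in Q175 (FDR = 1.37e-07) and -0.04 ± 0.04 in controls (FDR = 0.421), a difference of -0.34 ± 0.07 (FDR = 0.000375).

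Mir344-2 (ENSMUST00000175446, chromosome 7, 61940027 to 61940106, in an intron of A330076H08Rik) behaved like this pair. It ranged from 145.9 to 186.2 CPM at 2 months (median 156.6) and from 102.3 to 121.4 at 10 months (median 110.3). The older Q175 libraries lay below all younger ones and below all controls of 10 months, whose lowest was 143.4 CPM. The change was -0.52 ± 0.05 in Q175 and -0.08 ± 0.04 in controls, a difference of -0.44 ± 0.07 (FDR = 1.34e-05). Mir344 and Mir344b have a stretch of sequence in common with it.

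At lower levels, Mir362 of the Clcn5 cluster fell further in Q175 than in controls (difference -0.41 ± 0.09, FDR = 0.00171). Mir3093 was at 13.5 to 18.7 CPM at 2 months (median 16.04) and at 8.96 to 15.2 at 10 months (median 12.6), with overlap, and its age change differed from that of controls by -0.42 ± 0.11 (FDR = 0.00657), which was not called with Q20 alone (FDR = 0.0576). Mir130b, at 10.5 to 12.8 (median 11.8) and 7.27 to 11.9 CPM (median 8.28), gave -0.41 ± 0.14 (FDR = 0.0474), a call that was lost without any one of several libraries.

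Mir137, a neuronal microRNA that regulates synapse maturation, was not called in Q175 and fell in controls. It ranged from 18.4 to 25.3 CPM at 2 months (median 23.9) and from 20.4 to 26.5 at 10 months (median 24.8), and the groups overlapped. In WT it went from 14.7 to 24.0 CPM to between 10.5 and 18.6, and in Q20 from 17.2 to 23.1 CPM to between 9.51 and 16.6. All 10-month Q175 libraries lay above all controls of that age. The change was 0.06 ± 0.11 in Q175 (FDR = 0.695) and -0.53 ± 0.08 in controls (FDR = 7.07e-07), a difference of 0.59 ± 0.14 (FDR = 0.00191). In males only it was 0.39 (FDR = 0.377).

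Mir3099, in an intron of the imprinted gene Usp29 on chromosome 7, followed the same course. In Q175 it was at 32.4 to 41.8 CPM at 2 months (median 35.5) and at 32.7 to 43.0 at 10 months (median 37.7), with overlap. The difference of the age changes was 0.43 ± 0.09 (FDR = 0.000478), with -0.35 ± 0.05 in controls. Mir218-2, known from motor neurons, likewise fell in controls (-0.38) and was not called in Q175 (-0.09), a difference of 0.29 (FDR = 0.00487). With RPKM that difference was 0.20 and not called (FDR = 0.0586). The other miR-218 hairpin, Mir218-1, rose in controls (0.53, FDR = 0.0259) and was not called in Q175 (-0.11, FDR = 0.764). Its difference of -0.64 was not called (FDR = 0.245). Mir672, at 4.93 to 10.3 CPM (median 7.51) and 7.97 to 10.7 (median 9.18), gave a difference of 0.58 ± 0.20 (FDR = 0.048), which was lost without any one of several libraries.

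**Figure D3:**
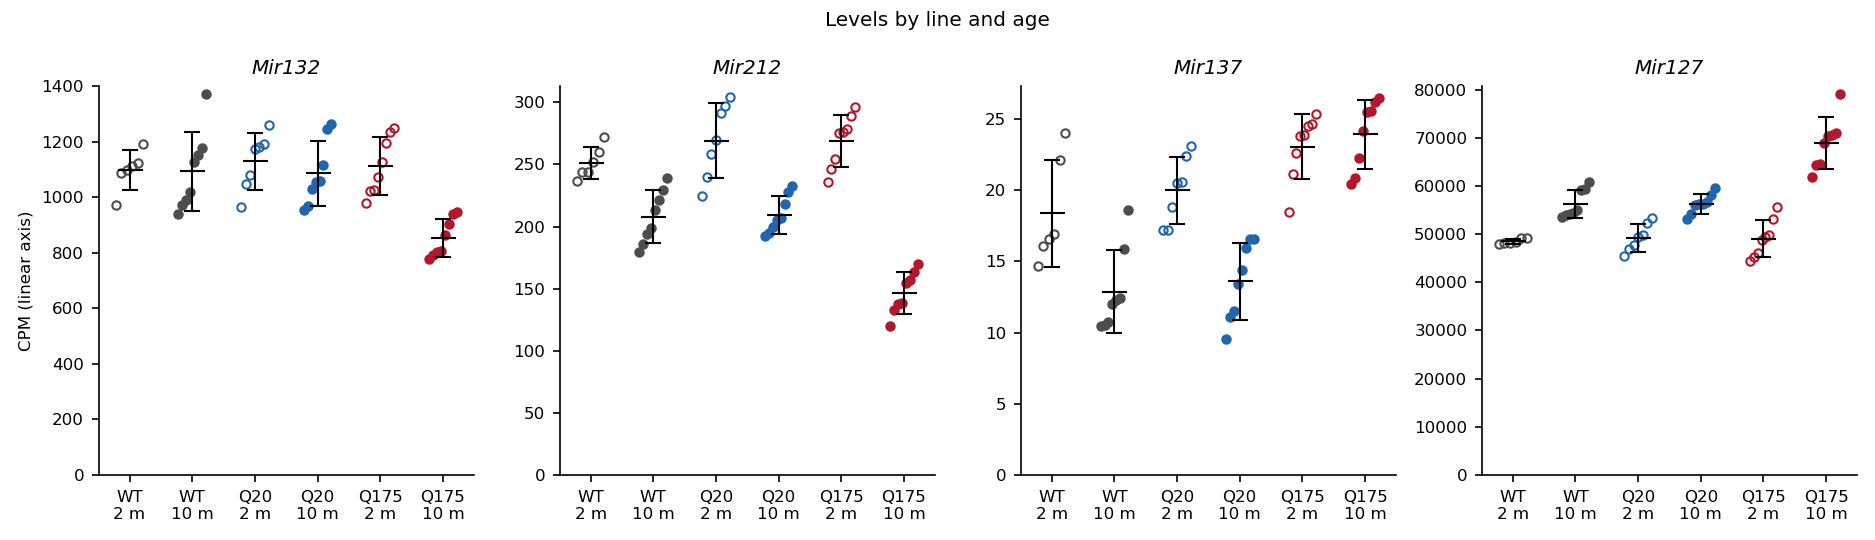
CPM of Mir132, Mir212, Mir137 and Mir127 in each library by line and age (open circles 2 months, filled circles 10 months; linear axes from 0; bars give mean and SD; 8 libraries per group, 6 for WT and 7 for Q20 at 2 months). At 10 months the Q175 libraries lie below all controls for Mir212 and above all controls for Mir137 and Mir127, and for Mir132 the lowest controls meet the highest Q175 library (945.7 CPM). Over all features, 20 of 414 (4.83%) lay outside the range of controls at 10 months in this way.

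Many microRNAs of the Dlk1-Dio3 domain had a higher age change in Q175 than in controls, 19 of the 43 listed members tested, beside 8.21% of all features. In males only, with fewer samples, none of these 19 differences was called. In females only those of Mir127, Mir154, Mir337, Mir411, Mir541 and Mir667 were called. With WT alone as the control those of Mir323, Mir377, Mir379, Mir485, Mir496a, Mir540, Mir541 and Mir665 were not called. Of the 13 tested in the group from Meg3 to Rian, 9 rose in Q175, 4 were not called and none fell, and the difference from controls was called higher in 4. Of the 30 tested in the group from Mir379 to Mir410, 14 rose, 15 were not called and Mir1193 fell (-0.89 ± 0.26, FDR = 0.00387), and the difference was called higher in 15 and lower in none. The median difference from controls was 0.18 and 0.25, against -0.01 over all features. The rises and falls in Q175 stand beside 24.4% of all features that rose and 23.9% that fell. In controls 4 of the 13 rose and none fell, while 9 of the 30 rose and 8 fell, beside 29.5% and 25.4% of all features. Some tested hairpins of the region lay outside these lists. Their ratios of 10 to 2 months in Q175 and controls were 1.45 and 1.11 for Gm25252 and 1.09 and 0.98 for Gm25750. For Gm24321 they were 0.75 and 0.71, and for Mir1247 at Dio3os 0.59 and 0.79.

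Mir127 (ENSMUST00000093568, chromosome 12, 109592846 to 109592915), transcribed opposite to Rtl1 and known to act against its messenger RNA in placenta, went from between 44450 and 55530 CPM (median 49070) to between 61770 and 79010 (median 69700) in Q175. The groups did not overlap, and the older Q175 libraries lay above all controls of that age, whose highest was 60770 CPM. The rise was 0.49 ± 0.04 (FDR = 3.66e-13), against 0.20 ± 0.03 in controls, a difference of 0.29 ± 0.05 (FDR = 0.000153). In males only it was 0.13 (FDR = 0.45).

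Mir154 (ENSMUST00000083514, 109738433 to 109738498, in an intron of Mirg) showed the largest rise of the domain. It ranged from 54.3 to 73.4 CPM at 2 months (median 58.9) and from 96.5 to 129.1 at 10 months (median 108.6). All older Q175 libraries lay above all younger ones and above all controls of 10 months (highest 86.3 CPM). The rise was 0.84 ± 0.07 in Q175 (FDR = 2.48e-14) and 0.35 ± 0.05 in controls, a difference of 0.50 ± 0.08 (FDR = 4.1e-05).

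Mir665, at 8.48 to 14.96 CPM at 2 months and 14.7 to 22.01 at 10 months (median 16.95), rose by 0.56 ± 0.12 (FDR = 7.77e-05). Its difference from controls (0.42 ± 0.14, FDR = 0.045) was lost without any one of several libraries. Among the abundant members, Mir381 rose from between 3967 and 4479 to between 5489 and 7721 CPM (0.60 ± 0.06), Mir410 from between 2296 and 2854 to between 3483 and 4570 (0.57 ± 0.06) and Mir541 from between 1264 and 1672 to between 1917 and 2328 (0.56 ± 0.06). The groups overlapped in none of these 3, and the differences from controls were 0.29, 0.34 and 0.34. Gm25252, annotated on the minus strand of the same region, rose by 0.54 ± 0.07 (difference 0.39 ± 0.08, FDR = 0.000962). Mir487b, Mir485, Mir377 and Mir496a were not called in Q175 (log2 0.07, 0.01, 0.07 and 0.18) and fell in controls (-0.19, -0.21, -0.23 and -0.19), which gave differences of 0.26, 0.22, 0.31 and 0.37. With WT alone as the control the differences of Mir485 (FDR = 0.133), Mir377 (FDR = 0.181), Mir496a (FDR = 0.0694) and Mir541 (FDR = 0.0694) were not called, and that of Mir377 was 0.18 with lane as a term (FDR = 0.279).

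**Figure D4:**
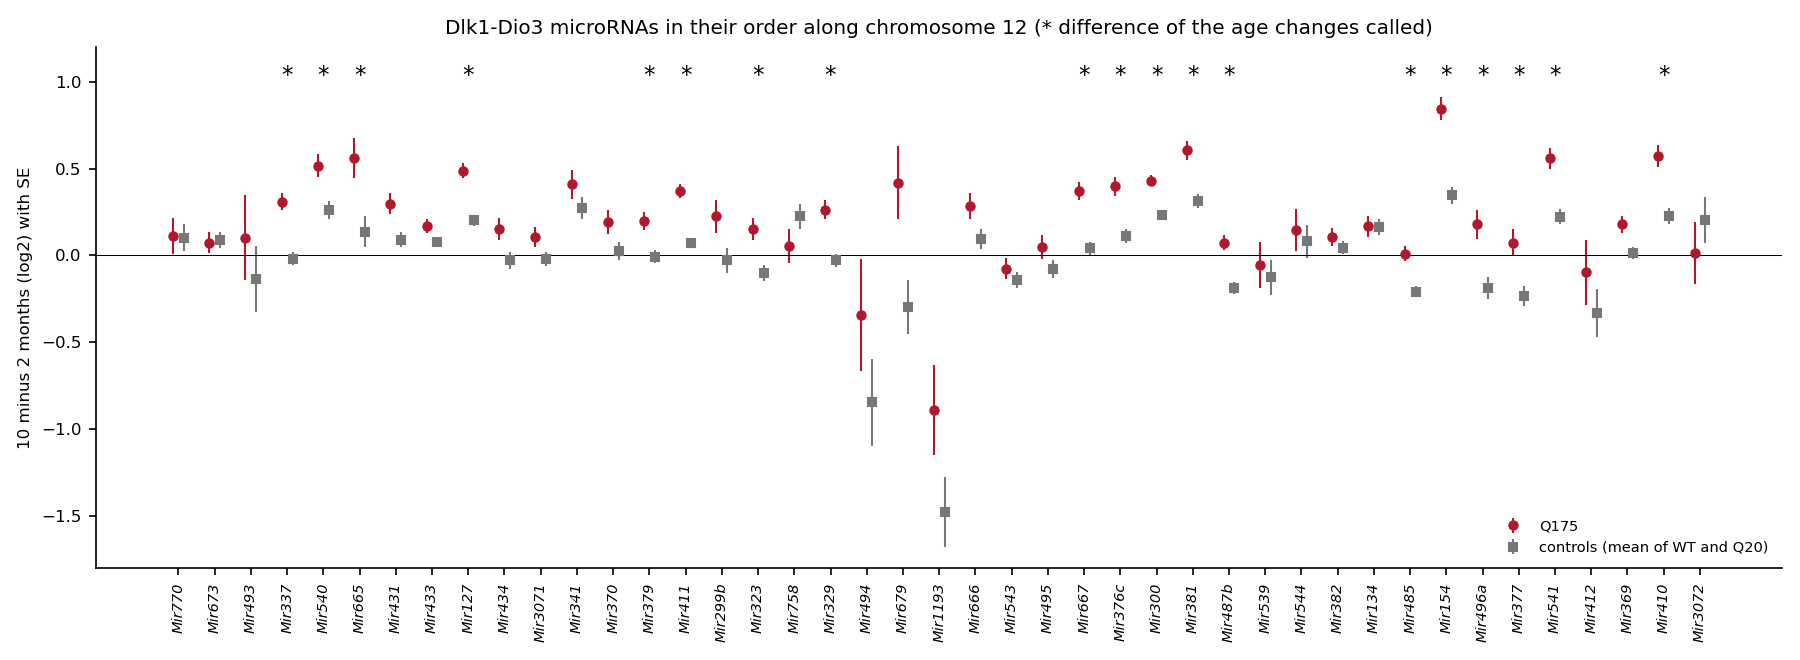
Log2 change from 2 to 10 months with its SE for the 43 listed Dlk1-Dio3 microRNAs that were tested, in their order along the chromosome. Red circles give Q175, grey squares controls, and a star marks a called difference. Hairpins of the region outside the lists, such as Gm25252 and Gm24321, are not shown. The 19 starred members all have the Q175 point above that of controls, with Mir154 highest at 0.84 in Q175.

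Outside the domain, Mir488, in an intron of the neuronal gene Astn1, rose from between 176.9 and 221.7 CPM (median 206.7) to between 255.2 and 308.9 (median 294) in Q175, without overlap, with a difference from controls of 0.42 ± 0.10 (FDR = 0.00178). Mir335, in an intron of the imprinted gene Mest, rose from between 320.7 and 390.7 to between 437.4 and 475.9 CPM, by 0.37 ± 0.04 in Q175 and 0.13 in controls (difference 0.24, FDR = 0.000249). Mir16-1, in a cluster that restrains the cell cycle, rose from between 8382 and 9780 to between 11910 and 14240 CPM, by 0.52 ± 0.04 and 0.23 (difference 0.28, FDR = 0.000363), and its partner Mir15a by 0.25 and 0.05 (difference 0.20, FDR = 0.00949). The other miR-16 hairpin, Mir16-2, rose by 0.34 and 0.18, and its difference of 0.15 was not called (FDR = 0.317). Of the 6 miR-181 hairpins, Mir181c and Mir181d rose in Q175, beside 24.4% of all features. Both differed from controls, by 0.18 and 0.22, beside 8.21% of all features with a higher change in Q175. With WT alone as the control the differences of Mir181c (FDR = 0.0606), Mir181d (FDR = 0.0779) and Mir15a (FDR = 0.0555) were not called. In females only those of Mir488 (0.26, FDR = 0.387), Mir335 (0.15, FDR = 0.256) and Mir181c (0.09, FDR = 0.615) were smaller and not called.

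Mir338 and Mir219a-2, microRNAs of oligodendrocytes, rose with age in controls and had a lower change in Q175. Mir338 changed by 0.16 ± 0.05 in Q175 (FDR = 0.00598) and 0.41 ± 0.04 in controls, a difference of -0.25 ± 0.06 (FDR = 0.0038), and its rise in Q175 was not called without 2-month library M4 (0.10, FDR = 0.118). Mir219a-2 ranged from 361.1 to 431.8 CPM (median 411.8) and from 331.2 to 457.1 (median 360.8) in Q175, with overlap (-0.10 ± 0.07, FDR = 0.248), and rose in controls (0.23 ± 0.05), a difference of -0.33 ± 0.09 (FDR = 0.0056). Mir219a-1, which shares its sequence, was the third of the list tested and its difference was not called. With WT alone as the control neither Mir338 (-0.16, FDR = 0.195) nor Mir219a-2 (-0.24, FDR = 0.173) was called, and Mir219a-2 was not called with all libraries kept (FDR = 0.108). In the same way Mir27b, Mir23b, Mir21a and Mir708 rose in controls (0.33, 0.21, 0.21 and 0.34) by more than in Q175 (0.13, 0.03, 0.05 and 0.05). Of these differences, Mir27b (FDR = 0.0941) and Mir708 (FDR = 0.122) were not called with WT alone, and Mir21a was not called with Q20 alone (FDR = 0.278) or lane as a term (FDR = 0.0551).

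The 6-month libraries, which none of the age comparisons used, hold 8 Q175 and 8 WT mice of another library series. Of the 340 features also tested for age, 81 were called there between Q175 and WT (23.8%). All 54 features whose age change differed from controls had a Q175 minus WT difference of the same sign at 6 months, and 41 of them were called. Over all 340 features the sign was the same in 257. At 6 months Mir212 was at -0.54 ± 0.06, Mir132 at -0.46 ± 0.04, Mir344-2 at -0.59 ± 0.06, Mir137 at 0.55 ± 0.11 and Mir127 at 0.28 ± 0.03. Mir362, Mir3093 and Mir676 were not called at 6 months (-0.10, -0.09 and -0.03).

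**Figure D5:**
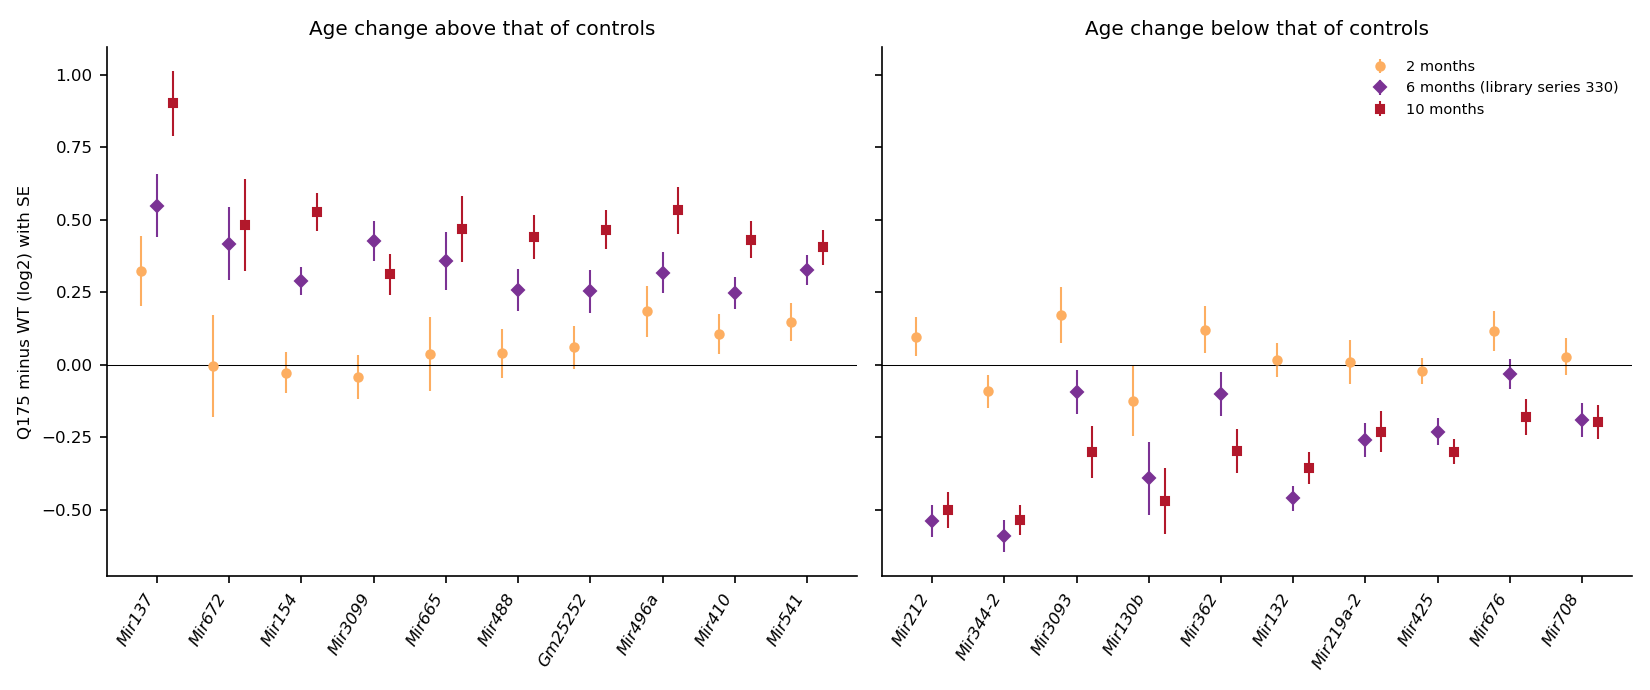
Log2 difference of Q175 from WT with its SE at 2, 6 and 10 months for the 10 features with the largest positive (left) and the 10 with the largest negative (right) difference in age change. At 2 months the differences lie between -0.12 and 0.18 apart from Mir137 (0.32), and at 6 and 10 months all lie on 1 side of 0, with Mir676 nearest to it at 6 months (-0.03).

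Females and males changed alike in direction wherever both were called. In fits of Q175 alone (394 features), 167 were called in females and 141 in males, 117 in both and all 117 in the same direction. The interaction of age and sex was called in 0 features by edgeR (22 at an unadjusted p under 0.05) and in 5 by DESeq2, which are named after their values were seen. Of these, Mirlet7a-2 fell further in females (-0.53 and -0.14). Mir448, Mir1298, Mir1264 and Mir1912, the Htr2c cluster of choroid plexus, were higher at 10 months in females and lower in males (log2 3.59 and -1.78 for Mir448). Mir448 lay at 96.2 and 78.6 CPM in females F1 and F3 at 10 months and at or below 33.1 CPM in the other 6 libraries of that age.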

How the data were processed

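The authors extracted total RNA from cerebellum with a miRNeasy kit and sequenced short reads, single-end and strand-specific. STAR with its defaults placed the reads on mm10 and HTSeq counted them, according to the methods. CASAVA 1.8.2 is named in the processing notes of the submitters. The authors deposited expected counts, not normalized, for each Ensembl microRNA hairpin. A step that is not given in the sources used here left some of them fractional, and they were rounded to whole numbers. A second table deposited by the authors holds RPKM and served as an alternative only (log2 of RPKM + 1). Symbols and positions came from GENCODE M21 (GRCm38), which lists 1228 of the 1626 features. The other 398 held 0.6% of counts. Hairpins with a common stretch of 18 nt or more were marked as possible copies.

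Main tests used edgeR 4.0.16 (quasi-likelihood, TMM) in R 4.3.3 on Q175, WT and Q20 at 2 and 10 months with sex as a covariate. filterByExpr (minimum count 10, total 15) kept 414 features. As in the study's methods, a library whose Z.k (its standardized connectivity to others of the same age) fell below -5 was left out. The difference of age changes subtracts the mean change of WT and Q20. Two-sided tests with an FDR under 0.05 were called. Alternatives used DESeq2 1.42.0, limma 3.58.1, other scalings, filters, sample sets and covariates. Depth was similar at both ages, with medians of 4197140.5 and 4301095 counts. On simulated counts with 409 features, the age test called 46.5% of features changed by log2 0.25 and 65.7% of those changed by 0.5. It called 1.9% of unchanged features. The test of the difference of age changes called 36.4%, 58.6% and 1.42% of these. The simulation held no lane effect, so it does not speak to lane. No 2 libraries of an age looked like one library counted again (lowest chi-square per degree of freedom 14.7 over 56 pairs).

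The features named are the 10 called rises and 10 called falls of largest size with a mean of at least 10 CPM at 1 age in Q175, the 10 largest called differences from controls in each direction, the 5 most abundant features, and up to 4 called members of lowest p in each list. Others named are members of these lists or are said to be named after their values were seen. The members, lists and tests were chosen with earlier results of these data known.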

Additional observations from a re-analysis of the deposited data

Results flagged for a closer look

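In 12 of the 190 Q175 groups of 8 libraries examined, 1 library lay far from the other 7, where chance gives about 1 in 20. At 10 months these were Mir708 at 98.59 CPM in F2 (nearest 115.4), Mir29b-1 at 80.2 in F3, Mir411 at 6551 in F1, Mir15a at 484 in M2, Mir25 at 817.4 in F1, Mir532 at 495.1 in F1, Mir451a at 436.1 in F2 and Mir200a at 13.9 in M4. At 2 months they were Mir200a at 0.708 and Mir429 at 1.652 in M2, Mir206 at 64.22 in M1 and Mir194-1 at 282.9 in M2. Library F1 at 10 months and library M2 at 2 months each appear 3 times.

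The age change differed between Q175 and controls, by the edgeR test of the difference itself, in 54 features. Those lower in Q175 (log2, Q175 minus controls) were Mir212 (-0.55), Mir344-2 (-0.44), Mir3093 (-0.42), Mir130b (-0.41), Mir362 (-0.41), Mir132 (-0.34), Mir219a-2 (-0.33), Mir425 (-0.30), Mir676 (-0.29), Mir708 (-0.29), Mir1249 (-0.27), Mir338 (-0.25), Mir221 (-0.23), Mir484 (-0.23), Mir320 (-0.22), Mir27b (-0.19), Mir23b (-0.18), Mir21a (-0.16), Mir149 (-0.15) and Mir92b (-0.15).

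Those higher in Q175 within the Dlk1-Dio3 domain were Mir154 (0.50), Mir665 (0.42), Gm25252 (0.39), Mir496a (0.37), Mir410 (0.34), Mir541 (0.34), Mir667 (0.33), Mir337 (0.33), Mir377 (0.31), Mir411 (0.30), Mir329 (0.29), Mir381 (0.29), Mir376c (0.29), Mir127 (0.29), Mir487b (0.26), Mir540 (0.25), Mir323 (0.25), Mir485 (0.22), Mir379 (0.21) and Mir300 (0.20). Those elsewhere were Mir137 (0.59), Mir672 (0.58), Mir3099 (0.43), Mir488 (0.42), Mir218-2 (0.29), Mir16-1 (0.28), Mir335 (0.24), Mir130a (0.24), Mir181d (0.22), Mir497b (0.21), Mir15a (0.20), Mir671 (0.19), Mir181c (0.18) and Mirlet7c-2 (0.16).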

How the results depend on the processing

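The 200 age calls in Q175 became 126 in males only and 159 in females only, with fewer samples in each, and lay between 186 and 207 when 1 Q175 library was left out. The 54 differences from controls became 16 in females only, 2 in males only and 33 with WT as the control, and lay between 48 and 57 without 1 library. With a replicate block, whose numbers do not mark shared animals or litters, 199 and 53 were called. With lane as a term 181 and 48 were called. The age by sex interaction, 0 by edgeR, gave 5 by DESeq2. Mir181a-2, not called (0.02), turned to -0.0039 with DESeq2 or its size factors, -0.0081 without a filter, -0.043 at 10 CPM or more, -0.027 with lane, -0.015 in females and -0.017 without 2-month M4, and the cause was not tested. Without 1 library it lay between -0.017 and 0.0553. No called value of a named feature changed sign in any alternative run.

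Some calls were lost when 1 of the 16 Q175 libraries was left out, given here as the number of libraries with that effect and the highest FDR. Of the age changes these were Mir206 (11, 0.197 without 10-month M1), Mir29b-1 (8, 0.133 without 10-month F3), Mir27a (7, 0.0885 without 10-month F3), Mir188 (3, 0.161), Mir34a (3, 0.087), Mir27b (1, 0.0662) and Mir338 (1, 0.118), the last 4 without 2-month M4, and Mir344c (1, 0.0547 without 10-month M2). Of the differences these were Mir497b (12, 0.0894) and Mir323 (2, 0.0546) without 2-month F1, Mir672 (12, 0.11) and Mir540 (6, 0.0788) without 2-month M4, Mir1249 (11, 0.111) and Mir21a (9, 0.141) without 10-month M4, Mir130b (11, 0.0999) without 10-month F1, Mir665 (7, 0.0937) and Mir379 (1, 0.0585) without 10-month F2, and Mir377 (6, 0.0678) without 2-month F3. Leaving out Q20 10-month F3, chosen after seeing the data, gave 214 and 54, and lost Mir206 (0.0741), Mir21a (0.116), Mir1249 (0.0773) and Mir130b (0.0616).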
